A study of Mus musculus with 2 samples.

Results

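RNA from unstimulated mouse embryonic fibroblasts (MEF) depleted of THOC5 was compared with RNA from control cells of the same immortalized line, before any serum was added. Each of 2 dual-color arrays carried 2 labelled RNA samples, with the unstimulated cells in the Cy3 channel and the cells given serum for 1 h in the Cy5 channel, so that 2 of the 4 labelled samples enter this comparison. A gene was measured here when a probe for it was well above background in both channels of both arrays, and 17175 of the 28135 genes with a symbol on the array met this rule. All cells came from Rosa26ERT2 Cre: THOC5 (flox/flox) animals of the background C57BL/6 x B6:129 Ola, and by this source name the controls carried the same floxed alleles and the same Cre recombinase, which is fused to a tamoxifen-responsive estrogen receptor domain. The genotype field of the labels calls the control cells wildtype and the depleted cells THOC5 knockdown, which differs from the floxed source name given for both. By the study's methods the depleted cells received 10 µM tamoxifen for 24 h and growth medium for 24 h, which the labels give as 2 days of tamoxifen, and were then starved of serum for 24 h. The control cells received no tamoxifen according to the labels. Tamoxifen exposure, active Cre and the loss of THOC5 therefore cannot be told apart in this comparison, and neither can the 2 cultures or the 2 array positions on the shared slide. The line is 1 immortalized MEF line, and the labels name no separate cultures or animals.

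THOC5 is a subunit of the THO complex, which together with the helicase DDX39B and the adaptor ALYREF forms TREX, the assembly that coats nascent mRNA and hands it to the export receptor NXF1. THO is conserved from yeast to mammals, and THOC5 is one of the subunits found in metazoans. Fibroblasts starved of serum leave the cell cycle and continue to make collagens, proteoglycans and other matrix proteins, while the genes that answer serum within an hour are kept low.

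There was 1 array a group, so no difference below has a replicate check and none was tested. Signals are given in arbitrary units after the 75th percentile of each array was set to a common 885 units, because before scaling it was 978 in the control Cy3 channel and 802 in the depleted Cy3 channel. Over all 17175 genes the log2 difference, depleted minus control, had a median of 0.03 and an SD of 0.38. Probes printed as 10 spots showed a median SD of 0.07 between spots for this difference, whereas the SD between different probes for the same gene was 0.32. A difference of 2-fold is used as the mark for higher or lower. It lies well outside the spread between spots of the probes printed as 10 spots, although this spread does not include the variation between cultures. The SD of the difference was 0.50 over the dimmest 3435 genes and 0.23 over the brightest 3435, so the mark is less strict for dim genes. Of 52 genes past the mark that had more than 1 measured probe, 39 had all probes on the same side of the median of all genes and 16 had all of them past 2-fold.

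At this mark 263 genes (1.53% of those measured) rose and 182 genes (1.06%) fell in THOC5-depleted cells. Most of the higher genes and many of the lower genes were dim. The dimmest 3435 genes held 131 of the higher and 76 of the lower genes. Among the 11986 genes whose brighter Cy3 signal exceeded 200 units before scaling, 79 rose (0.659%) and 94 fell (0.784%). Of the 182 lower genes, 78 were also at least 2-fold lower in the Cy5 channel after serum, where 1.36% of all genes were, and these made up 42.9% of the Cy3 list and 33.3% of the Cy5 list. Of the 263 higher genes, 141 were also at least 2-fold higher in Cy5, where 2.11% of all genes were, which is 53.6% of the Cy3 list and 38.8% of the Cy5 list. Both channels were read from the same spots, so the Cy5 value is not a second measurement of the unstimulated cells. The balance of higher and lower genes depended on the scaling: 59.1% of the calls were higher under the 75th percentile, 47% under quantile normalization, 36.8% under median scaling and 33.6% when the spike-in probes were set equal.

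**Figure D1:**
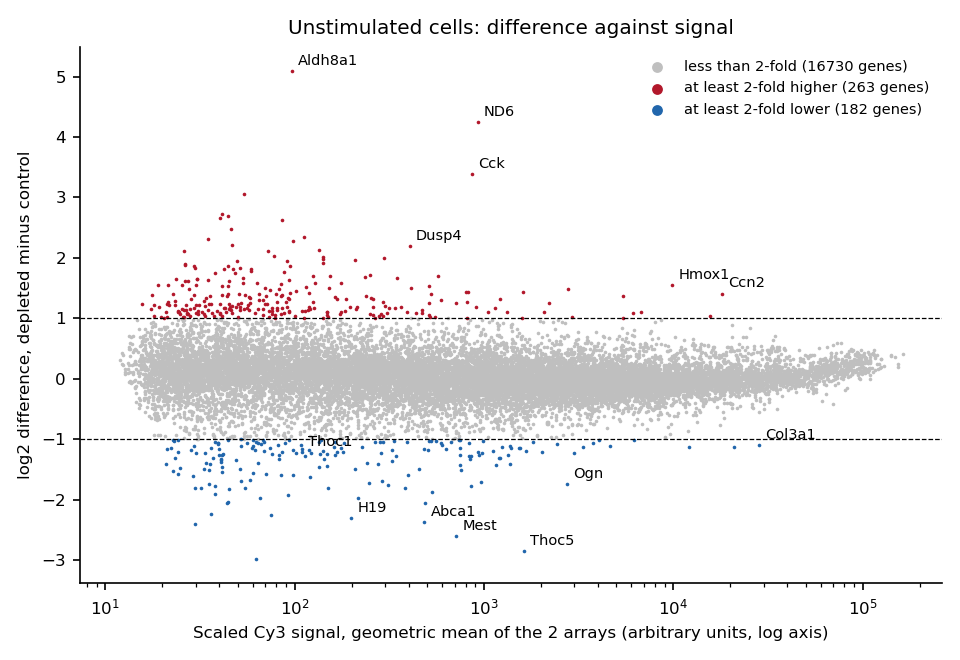
Difference between THOC5-depleted and control cells (vertical axis, log2 of scaled Cy3 signal) against the geometric mean of both signals (horizontal axis, arbitrary units, log scale) for 17175 genes, with 1 array a group. Dashed lines mark 2-fold. Most of the higher genes and many of the lower genes lie at low signal, and Thoc5, Mest and Abca1 are lower at moderate signal.

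Of the named genes measured on both arrays, the targeted gene had the lowest difference. Thoc5 gave 4353 units in control cells and 603 units in depleted cells, a difference of -2.85 on the log2 scale or 7.22-fold. Its only probe lies on mouse build mm9 at chr11:4828807-4828866, and whether the deleted exons contain this position is not given in the sources used here. The Cy5 channel gave 2764 and 502 units for the same probe, a difference of -2.46.

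Of the other subunits of THO, only Thoc1 fell, and it was dim and rested on 1 probe. Thoc1, a core subunit of the complex, was at 166 units in control and 71.9 units in depleted cells, a log2 difference of -1.21, and its Cy5 difference was -0.99. Thoc2, the scaffold subunit, gave 389 and 333 units (-0.23) with a second probe at 0.39, and Thoc7, the partner of THOC5 in the complex, gave 14998 and 14061 units (-0.09). Thoc3 and Thoc6 differed by 0.03 and 0.18. Among the export factors the pair of related RNA helicases stood highest, with Ddx39b at 26785 and 43725 units (0.71) and Ddx39a at 18383 and 29605 units (0.69), both below the 2-fold mark. Of the 3 measured probes of Ddx39b the highest gave 1.10. The export receptor Nxf1 differed by 0.12 and the adaptor Alyref by 0.08. In all, 2 of the 23 THO and TREX genes fell, the targeted Thoc5 among them, against 1.06% of all genes, none rose, and the median of the list was 0.03, close to that of all genes.

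No gene for 3′ end cleavage and polyadenylation reached 2-fold. All 20 measured members lay between -0.83 and 0.65, with a median of 0.01. Cpsf2, which encodes CPSF100, was the lowest at 1917 units in control and 1082 units in depleted cells. Wdr33, another subunit of the cleavage and polyadenylation specificity factor, gave 2095 and 1347 units (-0.64), and Cpsf6 was the highest with 626 and 981 units (0.65).

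**Figure D2:**
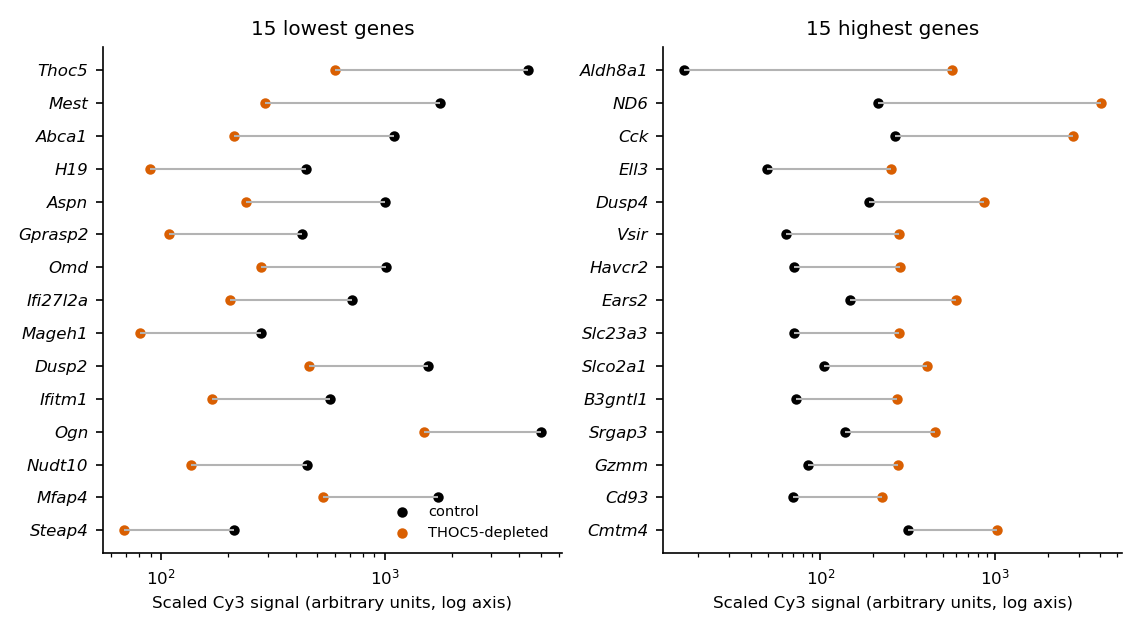
Scaled Cy3 signal (arbitrary units, log axis) of the 15 lowest and the 15 highest genes with a brighter Cy3 signal above 200 before scaling, 1 array a group, black for control and orange for THOC5-depleted cells. Thoc5 dropped from 4353 to 603 units and Cck was at 267 units in control and 2797 units in depleted cells.

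Several imprinted genes, which are expressed from 1 parental allele, were among the lowest. Mest, a gene expressed from the paternal allele, gave 1761 units in control and 291 units in depleted cells, a log2 difference of -2.60. Its probe was printed as 10 spots, whose log2 signals had an SD of 0.05 in control and 0.07 in depleted cells, and a second measured probe gave 423 and 80.3 units. The neighbouring gene Copg2, transcribed toward Mest, differed by 0.04. H19, a maternally expressed noncoding RNA, was at 444 units in control and 89.6 units in depleted cells (-2.31), while its other probe, near background at 12.6 and 14.2 units, differed by 0.17. Its partner Igf2 was not well above background in the Cy3 channel of either array.

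Meg3, the maternal noncoding RNA of the Dlk1 domain, fell from 1413 to 610 units (-1.21). A second measured Meg3 probe gave 414 and 207 units, and Mirg, a noncoding RNA of the same domain, was at 282 and 166 units (-0.76). The paternally expressed Dlk1 of this domain was at 2630 and 2856 units (0.12). The other imprinted genes below the mark were Slc38a4, an amino acid transporter (-1.14), Dcn, the proteoglycan decorin (8811 and 4367 units), and the dim Ppp1r9a and Asb4. Dcn is also counted among the fibroblast markers below. Whether each gene of the list is expressed from 1 allele in these cells was not measured. For Asb4 a second probe went the other way, at 0.56. Cdkn1c, a CDK inhibitor, gave 2767 and 1677 units (-0.72). Thus 7 of the 26 measured imprinted genes fell and none rose, against 1.06% of all genes lower, and the list median was -0.16. Grb10, Gnas and Snrpn differed by 0.25, 0.09 and 0.76.

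A pair of cholesterol transporter genes was lower. Abca1 and Abcg1 encode transporters that pass cholesterol out of the cell, and both are targets of the liver X receptors (LXR). Abca1 gave 1098 units in control and 213 units in depleted cells (-2.36), and Abcg1 gave 757 and 270 units (-1.49). Mylip, an LXR target that encodes a ubiquitin ligase, fell from 1329 to 547 units (-1.28). Srebf1, a further LXR target, was at 191 units in control with a difference of -0.79. The receptor genes themselves were not lower, with Nr1h2 at 3959 and 4161 units and the dim Nr1h3 at 54.6 and 92.5 units (0.76). Fasn and Scd1, enzymes of fatty acid synthesis, differed by -0.26 and -0.36, and Apoe, a carrier of lipid, by 0.68. In the list of LXR targets and lipid synthesis 3 of 20 genes fell, against 1.06% of all genes, none rose, and the median was -0.10.

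None of the 26 genes of cholesterol synthesis and uptake reached 2-fold in unstimulated cells, and their median was -0.12. Cyp51 (-0.74) and Tm7sf2 (-0.75), enzymes of the later steps of sterol synthesis, were the lowest.

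Several genes of the extracellular matrix were lower. In the list of matrix proteins other than collagens 7 of 50 fell, against 1.06% of all genes, none rose, and 39 lay below the median of all genes. The lowest was Mgp, an inhibitor of calcification, with 165 and 34.6 units (-2.25). The small leucine-rich proteoglycans Aspn, Omd and Ogn gave 999 and 240 units (-2.06), 1019 and 280 units (-1.86), and 4999 and 1499 units (-1.74). These proteins bind collagen or shape its fibrils. Mfap4, a protein of microfibrils, gave 1741 and 533 units (-1.71), and Tgfbi gave 4922 and 2259 units (-1.12). Fn1, the gene of fibronectin, was not lower, at 76515 and 91720 units (0.26). The list median was -0.25, and Thbs2 was highest at 0.80.

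Among 28 measured collagen genes 5 fell and 1 rose, against 1.06% and 1.53% of all genes, with a median of -0.19, or -0.21 relative to all genes. The relative median was 0.03 when genes well above background in Cy3 alone were included and -0.58 with both Cy3 signals above 200. Col5a2 gave 2226 and 836 units (-1.41), Col6a2 gave 1345 and 535 units (-1.33) and Col6a1 gave 17836 and 8194 units (-1.12). Col3a1, a major fibrillar collagen, fell from 41325 to 19310 units (-1.10), and Col5a3 gave a difference of -1.12. Both chains of type I collagen stayed within the 2-fold limits, with Col1a1 at 63924 and 69769 units and Col1a2 at 58580 and 51361 units. The basement membrane genes Col4a1 and Col4a2 stood on the other side, at 0.50 and 0.90. The gene that rose was Col20a1, which was dim at 27.5 and 70.8 units.

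**Figure D3:**
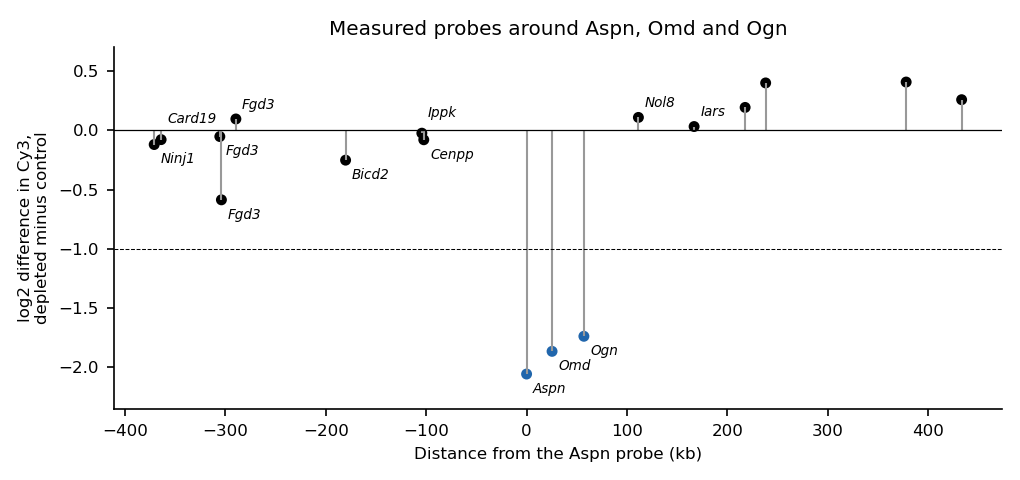
Log2 difference in Cy3, depleted minus control, of measured probes by distance from the Aspn probe (kb); each stem is 1 probe and blue marks at least 2-fold lower. Aspn, Omd and Ogn are lower by -2.06, -1.86 and -1.74, and the nearest measured genes on both sides lie near 0.

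Aspn, Omd and Ogn are neighbours on chromosome 13. Their probes lie on mm9 at chr13:49662479-49662538, chr13:49687847-49687906 and chr13:49719549-49719608. Their position was looked up only because of their values. Cenpp, a centromere protein gene with its probe 102 kb before that of Aspn, gave 1646 and 1557 units (-0.08). Nol8, 111 kb after it, gave 484 and 522 units (0.11), and Iars, a tRNA synthetase gene, gave 13970 and 14281 units (0.03). Ecm2, a matrix gene located 34.4 kb before Aspn, was not well above background on either array. Others of the 15 lowest genes were Gprasp2, Mageh1 and Nudt10, all on X, with differences of -1.96, -1.80 and -1.73, and Steap4, a metalloreductase gene, at -1.63.

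Interferon-stimulated genes were lower as a group. Of the 47 lists with at least 5 measured genes, this was the only one whose median lay at least 0.3 from that of all genes. Its 40 measured members had a median difference of -0.43, 33 of them lay below the median of all genes, 2 fell by 2-fold, against 1.06% of all genes, and none rose. The genes that fell were Trim25, a ubiquitin ligase of RNA sensing (1892 and 767 units, -1.30), and Ifi44 (253 and 106 units, -1.26). Oas1a, which makes the activator of RNase L, gave 1456 and 748 units (-0.96), Parp14 gave 1532 and 885 units (-0.79) and Oasl2 gave 513 and 297 units (-0.79). Of the transcription factors of the response, Stat2 (-0.24) and Irf9 (-0.22) were closer to the median of all genes. Irf1 (-0.44) and the dim Irf7 (-0.43) lay near the list median. Rsad2 (197 and 328 units, 0.73), Cxcl10 (3321 and 5456 units, 0.72) and Oasl1 (0.66) were higher in value. Outside this list, Ifi27l2a and Ifitm1, also named for their induction by interferon, were among the 15 lowest genes, at 712 and 205 units (-1.80) and 571 and 169 units (-1.75), and they gave -1.41 and -1.34 in Cy5.

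Many interferon-stimulated genes carry in their promoters the interferon-stimulated response element. Promoter windows of RefSeq (build GRCm38.p6, from 250 bases before to 50 bases after the start site) were searched on both strands for a core of this element, GAAA followed by any 2 bases and GAAA again. Of the 40 genes 30 had a window and 15 of these held the letters (50%), against 3.59% of 11213 measured genes and 3.99% of all 27025 genes with a window. Of the genes with the letters, the lowest (Oas1a) and the highest (Rsad2) in Cy3 and 3 between them are shown, with the match in capitals, 5′ to 3′ on the strand of the match.
Oas1a: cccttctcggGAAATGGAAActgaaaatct
Gbp2: ttaagacagtGAAAGTGAAActaaaagagt
Isg15: tatgccgtagGAAAAGGAAAccgaaacaga
Ifit1: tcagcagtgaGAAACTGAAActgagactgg
Rsad2: tctgttttctGAAAATGAAAgttggaccag
These windows lie at chr5:120907526-120907555 (minus strand), chr3:142620594-142620623 (minus), chr4:156200877-156200906 (minus), chr19:34640794-34640823 (minus) and chr12:26456553-26456582 (plus). The 15 genes with the letters had a median difference of -0.12, and 10 of them lay below the median of all genes. The 15 without them had a median of -0.50, with 14 below. A match is a description of the sequence only, and genes such as Oas1a (-0.96) and Rsad2 (0.73) both held it.

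**Figure D4:**
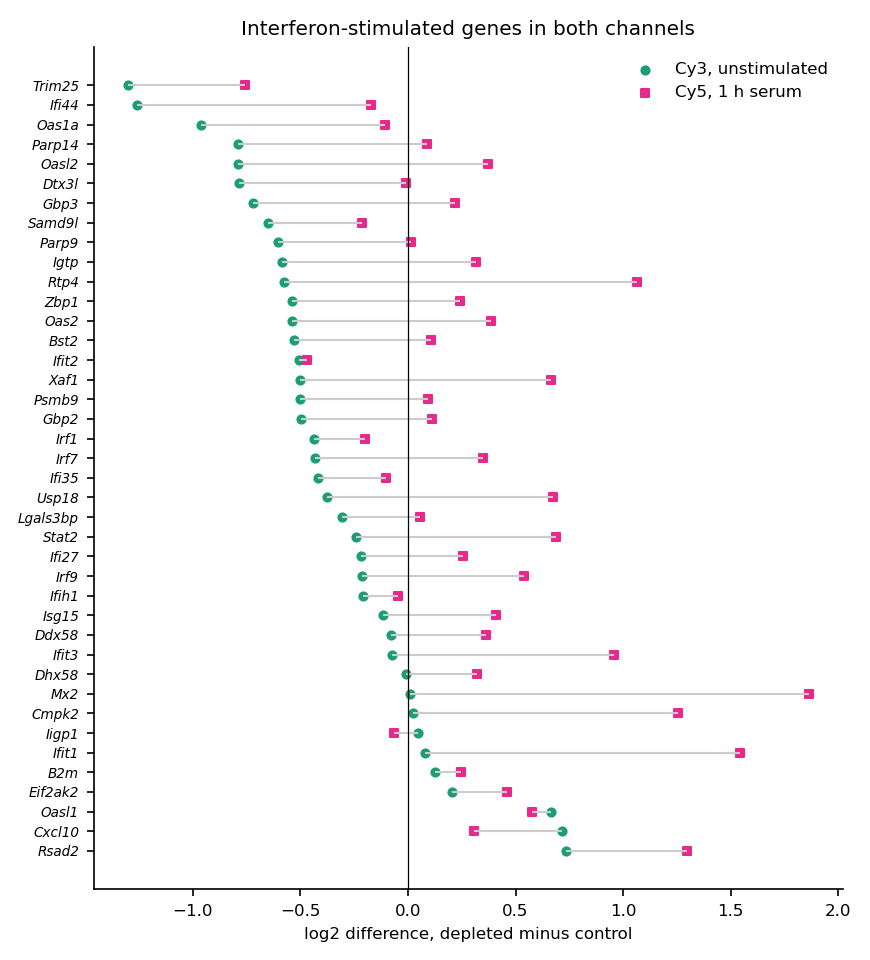
Log2 difference, depleted minus control, of 40 interferon-stimulated genes in the unstimulated Cy3 channel (circles) and the 1 h serum Cy5 channel (squares), 1 array a group. Most circles lie left of 0 and most squares right of their circle; Mx2 is at 0.01 in Cy3 and 1.86 in Cy5.

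After serum the same list stood on the other side. Relative to all genes, its median was -0.45 in Cy3 and 0.26 in Cy5. Of the 40 members 33 were below the median of all genes in Cy3 and 29 were above it in Cy5, with 23 doing both. The share of all genes that did both is not given here. In Cy5 5 of the 40 were at least 2-fold higher, against 2.11% of all genes. Mx2 (1.86), Ifit1 (1.54), Rsad2 (1.30), Cmpk2 (1.25) and Rtp4 (1.06) were these genes, and Rtp4 gave -0.58 in Cy3. Within each array the list's median log2 ratio of Cy5 over Cy3 was -0.92 in control and -0.22 in depleted cells, while that of all genes was -0.02 and -0.01. The difference between the channels was not tested.

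Of the named genes measured on both arrays with a brighter Cy3 signal above 200, Aldh8a1, an aldehyde dehydrogenase, had the highest difference. It gave 16.6 units in control and 563 units in depleted cells (5.09). Cck, the gene of the peptide hormone cholecystokinin, gave 267 and 2797 units (3.39), a 10.5-fold difference. Ell3, an elongation factor, gave 49.7 and 252 units (2.35). Ears2, the mitochondrial glutamyl-tRNA synthetase, gave 148 and 594 units (2.01), and Slco2a1, a prostaglandin transporter, gave 105 and 409 units (1.96). The surface proteins Havcr2 and Cd93 rose by 2.01 and 1.69 from 70.4 and 69.3 units. Each of these genes rested on 1 measured probe. The probes of Vsir (2.13 and 0.08) and of Srgap3 (1.71, with the lowest at -0.81) disagreed, whereas those of Cmtm4 (1.69 and 2.38) did not. The remaining genes of the 15 highest were Slc23a3, B3gntl1, Gzmm, ND6 and Dusp4.

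ND6 is a subunit of respiratory complex I and the protein gene encoded on the light strand of mitochondrial DNA. It was at 213 units in control and 4038 units in depleted cells (4.24) and gave 3.37 in Cy5. The other mitochondrial protein genes measured did not share this value. ND1, ND2, ND4, ND5, COX1 and CYTB lay between 0.08 and 0.26, with COX1 at 98012 and 117054 units.

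Genes induced early by serum included members at both ends before serum. Of 37 measured immediate early transcription factors and regulators 3 rose and 2 fell, against 1.53% and 1.06% of all genes, 24 lay above the median of all genes, and the median was 0.14. Among 74 of the serum-induced genes that the study listed for a smaller induction after THOC5 depletion 12 rose and 1 fell, against 1.53% and 1.06% of all genes, 54 lay above the median of all genes, and the median was 0.26. A further 18 that it listed for a moderately smaller induction had a median of 0.29, with 13 above and 1 past 2-fold in each direction, against the same shares of all genes. The 8 that it listed with little change of induction had a median of 0.00, with 4 above, 4 below and none past 2-fold. These lists were chosen on the same arrays from ratios over the Cy3 signal, so their direction is not independent evidence. The phosphatase genes, whose products switch off MAP kinases, were at both ends. Dusp4 gave 190 and 868 units (2.19), while Dusp2 gave 1568 and 459 units (-1.77). Arc fell from 1272 to 446 units (-1.51). Egr1 was at 4293 and 4393 units (0.03), Fos at 0.17, Jun at 0.45 and Myc at 0.27. Id1 and Id2, inhibitors of basic helix-loop-helix factors, rose from 2045 to 4140 units (1.02) and from 524 to 1265 units (1.27), while Id3 differed by 0.16.

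Secreted signals and their regulators included genes on both sides. Ccn2, a matricellular growth factor gene, rose from 11091 to 29458 units (1.41) and gave -0.85 in Cy5. In the TGF-beta and BMP list 5 of 36 rose and 2 fell, against 1.53% and 1.06% of all genes. The antagonist Fst (1.04), the inhibitor Smad7 (356 and 742 units, 1.06), Smurf1 (1.18) and the dim Gdf15 (1.39) were among the higher genes, and the ligands Bmp4 (1064 and 530 units) and the dim Bmp2 (-1.07) were lower. Among 25 chemokines and cytokines 2 passed the mark in each direction, against the same shares of all genes. Il33 (302 and 878 units, 1.54) and Il6 (102 and 306 units, 1.59) rose, and Cxcl12 (1914 and 775 units, -1.30) and Tslp (-1.07) fell. Of 51 growth factors and receptors 3 fell, against 1.06% of all genes, and none rose: Angpt1 (683 and 228 units, -1.58), Pdgfra, a receptor for platelet-derived growth factor (1149 and 481 units, -1.26), and Ptn (30634 and 14082 units, -1.12).

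**Figure D5:**
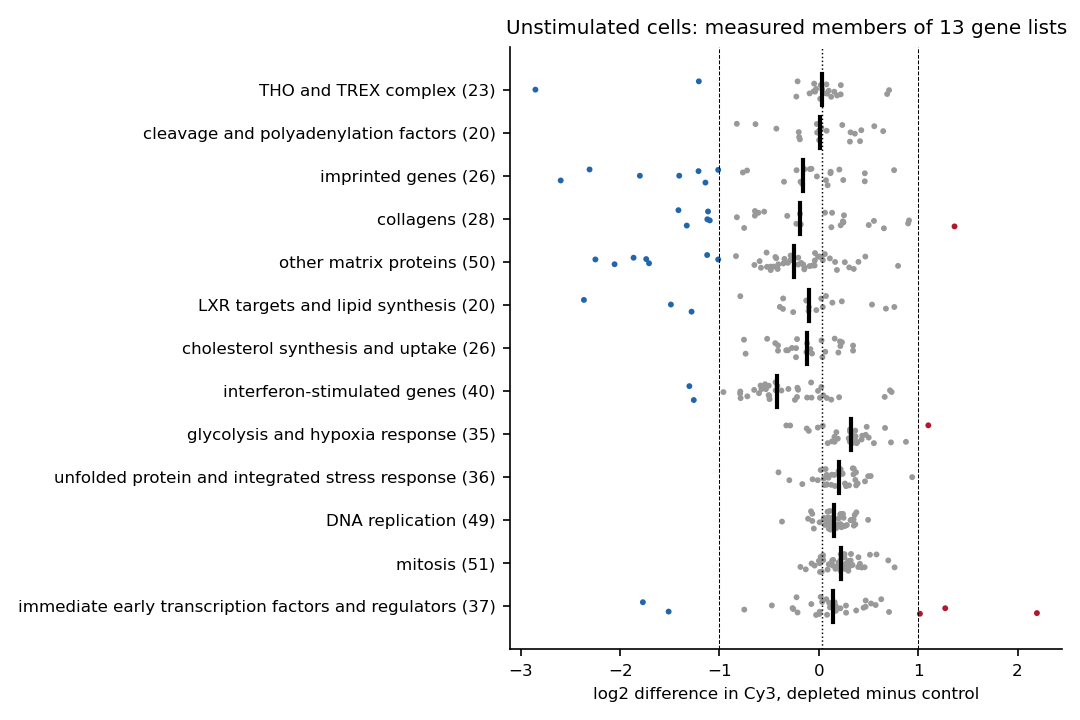
Log2 difference in Cy3, depleted minus control, of the measured members of 13 gene lists (numbers in brackets); black bars are list medians, the dotted line is the median of all genes (0.03), and red and blue mark at least 2-fold higher and lower. The interferon-stimulated list lies lowest at -0.43 and the glycolysis and hypoxia list highest at 0.32.

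Lists of metabolic and stress genes differed by small amounts. In the list of glycolysis and hypoxia response 30 of 35 members lay above the median of all genes, the median was 0.32, and 1 gene rose, against 1.53% of all genes. That gene was Egln3, an oxygen sensor of the hypoxia pathway (903 and 1939 units, 1.10). Hk2, the hexokinase, gave 4672 and 7728 units (0.73), and Pgk1 and Ldha gave 0.47 and 0.44. Of 36 genes of the unfolded protein and integrated stress response 30 lay above, with a median of 0.20 and none past 2-fold. Ppp1r15a, which restores translation after stress, was the highest at 11122 units in depleted cells (0.94). Among the 25 Nrf2 targets Hmox1, which degrades heme, rose from 5767 to 16897 units (1.55) with a second probe at 1.51, and the dim Gsta3, a glutathione transferase, fell from 57.1 to 27.3 units (-1.06) with a second probe at -0.58. They were the only 2 past 2-fold, against 1.53% and 1.06% of all genes, and the list median was -0.06. In the oxidative phosphorylation list 60 of 78 genes lay below the median of all genes, with a list median of -0.05 and none past 2-fold.

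Relative to all genes, most mitosis and DNA replication genes lay slightly higher in depleted cells. For 43 of 51 mitosis genes and 42 of 49 DNA replication genes the difference was above the median of all genes, the list medians were 0.22 and 0.15, and none reached 2-fold in either direction. Of 29 G1 cyclins, E2F factors and CDK inhibitors 12 lay above and 17 below. Racgap1 (5784 and 9812 units, 0.76) and Incenp (15941 and 25879 units, 0.70) were the highest mitosis genes, and Mki67, the proliferation marker, gave 7873 and 7648 units. Gas1, which was named for growth arrest, gave 3097 and 1335 units (-1.21), but its other probe differed by 0.10. Of 28 growth-arrest-specific and FoxO target genes 2 rose and 2 fell, against 1.53% and 1.06% of all genes, 17 lay below the median of all genes, and the list median was -0.03. Bcl2l11, a target of FoxO factors that promotes apoptosis, gave 44.3 and 215 units (2.28), and Fbxo32, another target of these factors, gave 604 and 1375 units (1.19), while Gas1 and Selenop, a selenium transport protein (939 and 422 units, -1.15), were the ones that fell.

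The cells carried fibroblast markers in both groups. Of 17 fibroblast markers on the array 16 were measured, and their summed signal was 467848 units in control and 465641 units in depleted cells, a sum made up mostly of a few bright probes such as S100a4, Fn1 and Vim. Of the 16 markers 4 fell, against 1.06% of all genes, and none rose. Vim (67067 and 76559 units), Thy1 and Col1a1 differed by 0.19, 0.22 and 0.13, while Pdgfra, Col3a1, Dcn and the dim Fap fell, so a smaller number of cells of a kind and less RNA per cell cannot be told apart for these genes. Markers of other cells were also measured, most of them dim. Of 12 macrophage markers 4 were measured, 3 of them with a brighter Cy3 signal above 200. The brightest, Itgam, gave 5716 and 8264 units, whereas Adgre1 and Ptprc were not well above background on at least 1 array. Of 9 pluripotency and neural markers 6 were measured, 2 of them above 200, with summed signals of 11654 and 10791 units. Of 11 epithelial markers 7 were measured, all 7 lay above the median of all genes with a list median of 0.28, and Cdh1 was not well above background on either array. All 7 were dim, and their median relative to all genes was 0.25, or 0.14 with the intensity trend removed, while the dimmest 3435 of all genes had a median of 0.13. Krt7 (1.08) and the endothelial Vwf (1.83) rose at low signal. Each was the only member of its list past 2-fold, 1 of 7 and 1 of 5 measured genes. Of all genes 1.53% were higher and 1.06% lower. The endothelial Cdh5 differed by -0.69, and Epcam, an epithelial marker, gave 29.1 units in control and was not well above background in depleted cells. The part of these cells in the results was not tested.

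Some genes were well above background in Cy3 on only 1 array, 831 in control and 491 in depleted cells. For these a bound was taken against the dim array's lowest signal called above background, or the probe's own signal where higher. It reached 2-fold for 117 and 212 of them. Skida1 was at least 53.9-fold lower in depleted cells, with 646 units in control, and Cplx4 at least 18.6-fold lower, with 223 units. Mageb16 was at least 37.3-fold higher with 379 units in depleted cells, and Lypd4 at least 26.7-fold higher with 272 units. Among the largest higher bounds were also the vomeronasal receptor gene Vmn1r54 (at least 24.2-fold) and the olfactory receptor gene Olfr809 (at least 19.3-fold). Each bound rests on 1 probe, and whether such values reflect expression was not tested. In Cy5 the spots of Skida1 gave 632 and 3.76 units and those of Mageb16 gave 2.94 and 361 units, the same direction in the same spots.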

How the data were processed

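Dual-color Agilent arrays of total RNA were scanned and read by the authors with Agilent Feature Extraction (10.7.3.1 in the submitters' processing notes). The deposited files give processed intensity for Cy3 and Cy5, background-subtracted and dye-normalized, per spot. The deposited value table of the series was not used. Outlier spots and controls were left out, spots of a probe were averaged on the log2 scale, and each array was scaled to its 75th percentile. Gene names were updated through RefSeq for 26412 of 35777 probes by accession, for 3851 by symbol and for 735 by synonym, and 4779 kept the file's name. The brightest measured probe stood for its gene. Named genes were the 15 highest and 15 lowest with a brighter Cy3 signal above 200 before scaling and a named gene, the markers, the THO subunits and, in each list described, members with the largest differences. The members and the 50 lists were chosen with earlier results of these data known. A list counted as shifted at a median at least 0.3 from all genes with at least 5 genes. No test was possible with 1 array a group; the number of arrays limits the precision. Values were computed in Python (3.11.15) with pandas (2.3.3). Alternatives used limma (3.58.1) for Aquantile and normexp, and 15 planned settings were tried. The scaling and the call were checked on simulated data. A few genes are not reported here.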

Additional observations from a re-analysis of the deposited data

Results flagged for a closer look

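Some results pointed in opposite directions before and after serum, and none of these differences was tested. The interferon-stimulated genes had a median of -0.45 relative to all genes in unstimulated cells and 0.26 after serum. For 5 genes the depleted cells were at least 2-fold higher before serum and at least 2-fold lower after it. Id1 was higher by 1.02 in Cy3 and stood at -1.19 in Cy5. Smad7 gave 1.06 and -1.27. Serpinb2, an inhibitor of proteases, gave 1.01 and -2.20, from 189 and 379 units in Cy3 and 3892 and 847 units in Cy5. Pramel39 gave 1.81 and -2.13, and the dim Gse1 gave 1.09 and -1.04. Apart from Pramel39 these genes lay just past 2-fold in Cy3: under median scaling, spike-in scaling or no scaling between arrays only Pramel39 stayed at least 2-fold higher in Cy3 (1.53 to 1.66).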

How the results depend on the processing

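The counts depended on the scaling, the offset added after background correction, the signal minimum and the threshold. The higher genes numbered 115 without scaling between arrays and 163 with the spike-in probes set equal, and the lower genes 467 and 322, while median scaling gave 304 lower genes. With normexp background correction and an offset of 50 units added 93 genes were higher and 68 lower, but 187 and 122 with normexp and no offset, an alternative chosen after seeing the data. With both Cy3 signals above 200 the counts were 50 and 58. At 1.5-fold 1005 genes were higher and 706 lower, and at 3-fold 57 and 36. Scaling moved the median of all genes by -0.29 without scaling, -0.17 with spike-ins and -0.15 with medians, and differences shift by these amounts. Lists past the 0.3 limit numbered 1, but 3 under quantile normalization, Aquantile and the mean over probes, 4 with both signals above 200 and 2 with the intensity trend removed. The interferon-stimulated list passed in all 13 settings (-0.46 to -0.38 relative to all genes), but not every setting could have changed this. Settings that only rescale whole arrays, such as median scaling, spike-in scaling and no scaling between arrays, shift every gene alike. They cannot change the value or sign of any list relative to all genes, and here they gave the main value of -0.45. The Cy5 value of the interferon-stimulated list was 0.25 with the intensity trend removed, an alternative chosen after seeing the data. The collagen list ranged from -0.58 to 0.03. Thoc5 ranged from -3.14 to -2.75. The 15 lowest genes passed 2-fold in each of the 13 settings in which they were measured, and the 15 highest did so except Srgap3 under the mean over probes (0.51). With both Cy3 signals above 200 only 7 of the 15 lowest and 4 of the 15 highest were measured. All were picked as the extremes of these same values. These 30 genes and the list past the limit kept their sign. Of all 47 lists 14 changed sign relative to all genes in some setting, all with a main value of at most 0.21 in size, the collagens and the fibroblast markers among them. Of 358 values of these genes 17 moved by more than the SD between probes of a gene, 14 of them under normexp with the offset and 3 under the mean over probes. Under normexp with the offset Aldh8a1 gave 3.32, Ell3 1.73, H19 -1.77, Mageh1 -1.35 and Steap4 -1.08, and under the mean over probes Vsir gave 1.11. With 1 array a group, leaving out a replicate was not possible. No paired analysis was possible because each group holds 1 array and the groups share only 1 number.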
